A study of Saccharomyces cerevisiae with 30 samples.

Results

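The messages described here are those of W303, a wild-type laboratory strain of budding yeast (Saccharomyces cerevisiae), and the measurement is how the split of each message between membrane-bound and soluble material differed after a shift to 37 °C for 1 h compared with growth at 25 °C. Members were all open reading frames (ORFs) with at least 50 counts in each of the 4 W303 libraries, which left 4717 of 5904 ORFs (79.9%). Of the 1187 ORFs below that minimum, 378 missed it only in the 25 °C membrane library. The groups were W303 at 37 °C, membrane and soluble, and W303 at 25 °C, membrane and soluble, with 1 poly(A) RNA library each. All grew in rich medium (YPD) to mid-log phase, and no drug or mutation is given for W303. Set beside them are the same 4 libraries from prt1-1 (strain CY2522), whose mutated gene encodes a subunit of the initiation factor eIF3 and whose mutant allele blocks translation initiation at high temperature. BY4741 cells carrying SRP72-TAP, with lysates incubated in cycloheximide (CHX) or in puromycin, which releases nascent chains, supply a further membrane to soluble ratio.

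As background, a message for a secreted or membrane protein reaches the endoplasmic reticulum (ER) mostly through its translating ribosome. The signal recognition particle (SRP) or other factors bind the emerging hydrophobic segment and dock the ribosome on the translocon. Messages for some mitochondrial proteins are held at the outer membrane in a comparable way. A shift of yeast to 37 °C also switches on heat shock and general stress genes and lowers messages for ribosomal proteins.

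For each ORF the membrane to soluble ratio was formed on the log2 scale from CPM, the counts of an ORF scaled to equal library totals. The change is the 37 °C ratio minus the 25 °C ratio, less the median of that difference over all 4717 ORFs. A value above 0 therefore means that the ratio was higher at 37 °C than for the median ORF, and a change past 2-fold means a log2 change of 1 or more in size. Intervals are 95% and cover counting error of the 4 counts only. No centring shifts each change by -0.32 and TMM scaling by 0.12, so the sign of a value smaller than those shifts depends on the scaling. With 1 library per group there is no replicate check of any difference and no test. CPM are shares of a library, and in bulk lysates fewer cells holding a message and less of it per cell cannot be told apart.

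The W303 libraries held 5.18 M (37 °C membrane), 8.40 M (37 °C soluble), 3.14 M (25 °C membrane) and 11.4 M counts (25 °C soluble). The prt1-1 libraries held 6.69 M to 12.5 M. The auxotrophic markers LEU2, URA3 and MET17 had 0 counts in the BY4741 libraries and 258 to 8314 counts in each W303 library, a difference that goes with the strain labels. By fixed cuts the 25 °C pair of W303, whose membrane library is the shallowest, stood farther from BY4741 than the 37 °C pair. A log2 ratio of 1 or more at 25 °C in W303 beside a ratio below 0 in BY4741 was held by 97 ORFs, against 15 at 37 °C. These ratios are not centred. Their median over all ORFs was -0.04 at 25 °C and -0.45 at 37 °C in W303, and -0.40 in BY4741. Pearson's r with the BY4741 ratio was 0.87 at 25 °C and 0.90 at 37 °C, with Spearman's rho at 0.68 and 0.69. Among the ORFs that the authors class as cytonuclear, the ratio spread with an SD of 0.46 at 37 °C and 0.66 at 25 °C in W303, 0.64 at 37 °C and 0.76 at 25 °C in prt1-1, and 0.42 in BY4741. The 25 °C spread of W303 is thus wider than that of BY4741 and narrower than that of prt1-1. Each change below contains the 25 °C ratio. Class medians, several list medians and some single values are given again with the 25 °C ratio of prt1-1 or the ratio of BY4741 in its place. A value given without such a replacement can also shift or change sign with it.

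The median log2 ratio of membrane to soluble message was -0.45 at 37 °C and -0.04 at 25 °C, and the median difference of -0.32 is the value taken out of every change. Changes were narrow around that median, with an SD of 0.48, a 10th percentile of -0.57 and a 90th percentile of 0.55, against a median counting error of 0.14. A change past 2-fold was found in 180 ORFs (3.82%), of which 51 were higher (1.08%) and 129 lower (2.73%) at 37 °C. At this count minimum the counting interval of any change past 2-fold leaves out 0, so the interval adds no further filter. In prt1-1 the same measure was past 2-fold higher in 608 (13.0%) and lower in 1012 (21.7%) of 4670 ORFs. A log2 ratio of 1 or more was held by 851 ORFs (18.0%) at 37 °C and by 1063 (22.5%) at 25 °C in W303, against 309 (6.62%) at 37 °C and 1115 (23.9%) at 25 °C in prt1-1.

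**Figure D1:**
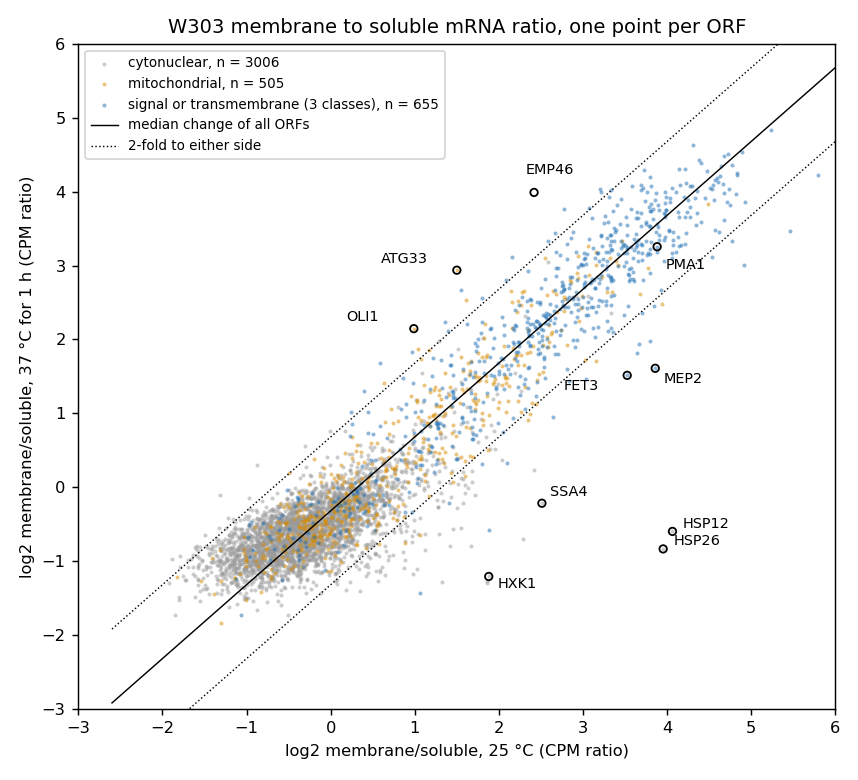
The log2 ratio of membrane to soluble CPM at 37 °C (vertical) is plotted against that at 25 °C (horizontal) in W303, one point per ORF of the cytonuclear, mitochondrial and 3 signal or transmembrane classes (EMP46, of the exception class, is shown by its circle alone), with the median change as a solid line and 2-fold to either side dotted. Most signal or transmembrane messages follow the line at high ratios at both temperatures, and HSP26 and HSP12 lie farthest below it, at a 25 °C ratio near 4 and a 37 °C ratio below 0.

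Messages with a signal sequence or transmembrane segment were enriched at the membrane at both temperatures in W303. The authors deposited a class for each ORF, and 3 classes carry such signals, 655 of whose 879 ORFs were members. Their median log2 ratio was 2.30 at 37 °C and 2.67 at 25 °C in W303, and their median change was -0.01. Past 2-fold, 17 of the 655 were higher and 20 lower. In prt1-1 the median ratio of the same classes was -0.12 at 37 °C and 2.25 at 25 °C, and the median change was -2.26, with 7 of 648 ORFs higher and 514 lower. A ratio of 1 or more was held in W303 by 503 of them at 37 °C and 544 at 25 °C, and in prt1-1 by 28 at 37 °C and 529 at 25 °C. Puromycin in the BY4741 lysate, set against CHX, gave these classes a median change of -1.42, with 452 of 654 lower past 2-fold, where over all 4708 ORFs 129 were higher (2.74%) and 762 lower (16.2%). In the BY4741 CHX lysate 747 of all ORFs (15.9%) had a ratio of 1 or more. With the prt1-1 25 °C ratio in place of that of W303 the median W303 change of the 3 classes was 0.34, and with the BY4741 ratio it was 0.43, so a value near 0 depends on the 25 °C ratio. W303 and prt1-1 share no library, but strain, mutation and culture differ together and cannot be told apart.

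The classes differed little from each other in W303. The median change was 0.01 for 64 ORFs with both a signal sequence and a transmembrane segment, -0.06 for 444 with a transmembrane segment and 0.12 for 147 with a signal sequence alone. It was 0.03 for 43 tail-anchored, -0.06 for 505 mitochondrial, -0.08 for 508 of the exception class and 0.03 for 3006 cytonuclear ORFs. The matching prt1-1 medians ran between -2.79 for signal with transmembrane and 0.28 for cytonuclear ORFs. Those that the authors mark as SRP dependent (326 ORFs) had a median change of -0.06 in W303 and -2.65 in prt1-1, and the SRP independent ones (227 ORFs) 0.08 in W303 and -2.54 in prt1-1. All 7 class medians in W303 thus lay between -0.08 and 0.12. With the BY4741 ratio in place of the W303 25 °C ratio they lay between -0.10 (tail-anchored) and 0.47 (signal sequence alone).

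**Figure D2:**
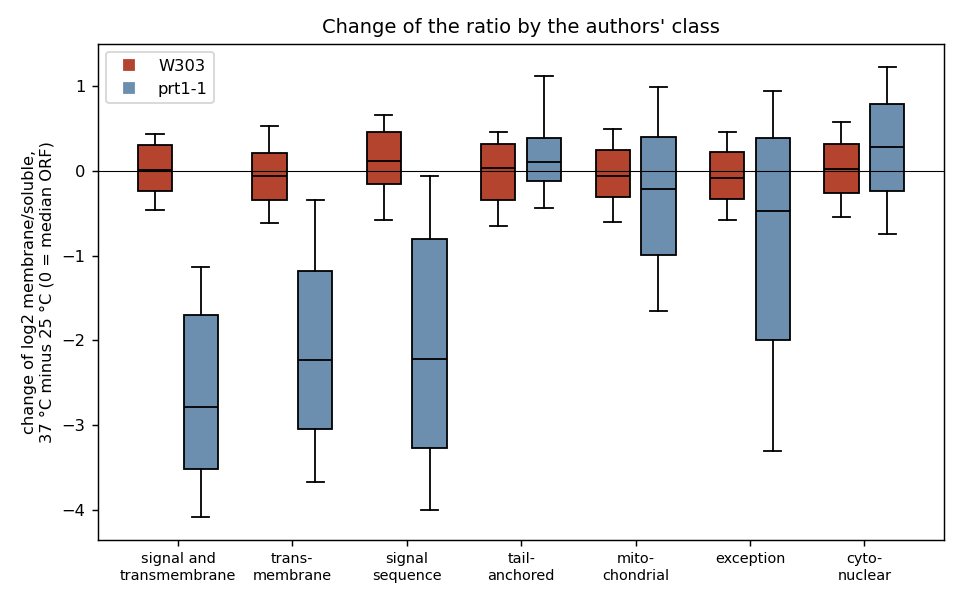
The change of the log2 membrane to soluble ratio, 37 °C minus 25 °C, is shown by the authors' class for W303 (left box of each pair) and prt1-1 (right box), with the median line, the quartiles as the box and whiskers at the 10th and 90th percentiles over ORFs. The W303 boxes centre within 0.12 of 0 in each class, and the prt1-1 boxes of the 3 signal or transmembrane classes centre at -2.22 or lower.

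With the W303 25 °C ratio, the change varied little with the position of the signal or with the strength of membrane enrichment. These bins were not scored with another ratio. With the BY4741 ratio in its place the median was 0.43 for the 3 signal or transmembrane classes and -0.07 for cytonuclear ORFs. With the prt1-1 25 °C ratio it was 0.34 for the 3 classes and -0.10 for cytonuclear ORFs. Among the 3 signal or transmembrane classes the median change was 0.03 where the first signal began before codon 30 (381 ORFs), -0.00 at codons 30 to 99 (164 ORFs) and -0.12 from codon 100 on (110 ORFs). Across all ORFs binned by the authors' deposited membrane enrichment of ribosome footprints in BY4741, the median change was 0.10 under an enrichment of 0 (2114 ORFs) and -0.08 at 6 or more (173 ORFs), with the bins between at -0.11 to -0.01. In prt1-1 the same bins ran in steady order down to a median of -3.16 at 6 or more, against 0.27 under 0.

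ER folding factors were higher in level at 37 °C in both fractions of W303, with little difference in ratio. KAR2 (chromosome X, 381327 to 383375 in the R64 assembly) encodes the Hsp70 of the ER lumen. It had 10114 CPM at 37 °C and 2473 CPM at 25 °C in membrane libraries, and 1084 CPM at 37 °C and 214 CPM at 25 °C in soluble libraries. Both fractions were thus higher at 37 °C by similar factors, and the change was 0.01 (-0.06 to 0.09), against -1.96 in prt1-1. PDI1 (chromosome III, 48653 to 50221), the protein disulfide isomerase of the ER, had 12313 CPM at 37 °C and 3922 CPM at 25 °C in membrane, and 721 CPM at 37 °C and 304 CPM at 25 °C in soluble libraries. Its change was 0.73 (0.66 to 0.79) in W303 and -3.74 in prt1-1. Over the 21 members of the list of ER lumen folding factors, the median level was higher at 37 °C by 1.05 (log2) in membrane and by 1.25 in soluble libraries, and the median change was 0.12, with 0 past 2-fold in either direction. The range ran between -0.77 for EPS1, a membrane-bound disulfide isomerase, and 0.79 for FPR2, a prolyl isomerase of the ER.

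The translocation machinery gave similarly small values. SEC61 (chromosome XII, 875736 to 877178), the channel of the translocon, had 1633 CPM at 37 °C and 1339 CPM at 25 °C in membrane, and 135 CPM at 37 °C and 63.5 CPM at 25 °C in soluble libraries, a change of -0.49 (-0.63 to -0.34). The soluble level moved more than the membrane level here, and in prt1-1 the change was -3.08. With the prt1-1 25 °C ratio in place of that of W303, SEC61 stood at 0.62, and with the BY4741 ratio at 0.55. SSS1, its small tail-anchored partner, had a ratio near 0 at both temperatures and a change of -0.09. The 20 ORFs of translocon, signal peptidase and oligosaccharyltransferase had a median of -0.05, with 0 past 2-fold, between -0.58 for OST2, an oligosaccharyltransferase subunit, and 0.73 for SEC11, the catalytic subunit of signal peptidase. The list of SRP and its receptor (8 ORFs, median 0.13) ran between -0.75 for the membrane-spanning beta subunit of the receptor and 0.50 for the alpha subunit that it anchors. The beta subunit had a log2 ratio of 3.61 at 37 °C and 4.68 at 25 °C. Its change was -0.11 with the prt1-1 25 °C ratio and 0.98 with the BY4741 ratio in place of the W303 25 °C ratio. HAC1, which encodes the transcription factor of the unfolded protein response, changed by -0.42, and the 19 regulators and degradation factors of that response had a median of 0.06.

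Cell surface and vacuolar messages gave the larger single values among secretory ORFs. PMA1 (chromosome VII, 479910 to 482666), the proton pump of the plasma membrane, had 10741 CPM at 37 °C and 18538 CPM at 25 °C in membrane, and 1125 CPM at 37 °C and 1257 CPM at 25 °C in soluble libraries, a change of -0.31 (-0.35 to -0.27). With the prt1-1 25 °C ratio in place of that of W303, PMA1 stood at 0.475, and with the BY4741 ratio at 0.44. GAS1, a wall glucan transferase, changed by 0.33. HSP150, a secreted wall protein whose message held a smaller share of the membrane than of the soluble library at both temperatures, changed by -0.36. Of the 30 cell wall ORFs with a GPI anchor or secreted, 0 were higher and 2 lower past 2-fold, with a median of 0.34 that drops to 0.01 with no centring. The 2 were PIR3 at -2.18 and PLB2, a phospholipase B of the cell surface named for its value, at -1.08, and the highest was CCW14 at 0.92. The wall stress sensors and plasma membrane stress proteins (18 ORFs) had a median of 0.12 and 0 past 2-fold, with WSC2 at 0.12 and WSC4, the lowest, at -0.81. HSP30, a plasma membrane protein induced by heat, was under the minimum, with 1748 counts in the membrane and 142 in the soluble library at 37 °C, and 24 in the membrane and 23 in the soluble library at 25 °C.

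Several nutrient transporters were among the lower values of membrane proteins. FET3 (chromosome XIII, 388822 to 390732), the ferroxidase of iron uptake, had 84.3 CPM at 37 °C and 1401 CPM at 25 °C in membrane, and 29.5 CPM at 37 °C and 122 CPM at 25 °C in soluble libraries. Its level was lower at 37 °C in both fractions, more so at the membrane, and the change was -1.69 (-1.93 to -1.45), against -2.73 in prt1-1. MEP2 (chromosome XIV, 357453 to 358952), an ammonium permease, had 105 CPM at 37 °C and 637.5 CPM at 25 °C in membrane, and 34.5 CPM at 37 °C and 43.9 CPM at 25 °C in soluble libraries. Its change was -1.93 (-2.18 to -1.68), with -0.48 when the prt1-1 25 °C ratio, and 1.67 when the BY4741 ratio, took the place of the W303 25 °C ratio. In the list of 40 plasma membrane transporters 0 were higher and 5 lower, with a median of -0.14. Beside FET3 and MEP2 these were the zinc transporter ZRT1 (-1.41), the iron permease FTR1 (-1.11) and the amino acid permease GAP1 (-1.11), named after their values were seen. Scored with the prt1-1 25 °C ratio, ZRT1 stood at 0.31 and GAP1 at 0.24, and with the BY4741 ratio ZRT1 stood at 1.22, FTR1 at 0.49 and GAP1 at 1.70, so these directions were not stable. HXT1, a glucose transporter, was the highest at 0.74.

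Over all 3 signal or transmembrane classes, the 20 lower ORFs each had a ratio of 1 or more at 25 °C, and 14 still had one at 37 °C. Their membrane level was down past 2-fold at 37 °C in 10 and up in 2, and their soluble level was down in 5 and up in 7. The 17 higher ORFs all had a ratio of 1 or more at 37 °C, and 13 had one at 25 °C. Their membrane level was up past 2-fold in 13 and down in 0, and the soluble level was up in 7 and down in 0. These levels are themselves part of the change.

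The highest change of all 4717 ORFs was that of EMP46 (chromosome XII, 287916 to 289250), a lectin-like protein of the early secretory pathway that the authors place in the exception class. It had 195 CPM at 37 °C and 30.6 CPM at 25 °C in membrane, and 12.3 CPM at 37 °C and 5.72 CPM at 25 °C in soluble libraries, a change of 1.89 (1.35 to 2.43). It was one of 2 higher among 18 p24 proteins and cargo receptors (median 0.24), the other being SVP26 at 1.02, named after its value was seen. AVT6 (chromosome V, 399496 to 400842), an amino acid exporter of the vacuole, had 449.9 CPM at 37 °C and 90.2 CPM at 25 °C in membrane, and 30.6 CPM at 37 °C and 14.6 CPM at 25 °C in soluble libraries. Its change was 1.57 (1.24 to 1.91) in W303 and -2.78 in prt1-1. MSC1 changed by 1.45, with 340.1 CPM at 37 °C and 41.1 CPM at 25 °C in membrane libraries, and by -0.36 in prt1-1.

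Vacuolar proteins were also among the higher values. Of 13 vacuolar hydrolases 2 were higher and 1 lower past 2-fold, with a median of 0.11. ATH1, the acid trehalase, changed by 1.04, and PEP4, the proteinase that activates other hydrolases, by 1.03 (named for its value). The lower one, AMS1, is a mannosidase that reaches the vacuole from the cytosol without the ER and is classed as cytonuclear. It changed by -1.17. VMA16 (chromosome VIII, 160844 to 161485), a subunit of the vacuolar ATPase membrane sector, had 791 CPM at 37 °C and 682 CPM at 25 °C in membrane, and 58.2 CPM at 37 °C and 99.5 CPM at 25 °C in soluble libraries, a change of 1.31 (1.14 to 1.48). The other 6 members of that list were not past 2-fold, STV1 being the lowest at -0.72.

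The remaining secretory lists had medians near that of all ORFs when scored against the W303 25 °C ratio. The 40 ER membrane lipid enzymes had a median of -0.03 and 0 past 2-fold, between ALE1, a lysophospholipid acyltransferase, at -0.84 and ARE2, a sterol acyltransferase, at 0.80. The 32 Golgi and ER glycosyltransferases had a median of -0.08 and 0 past 2-fold, between ALG8, a glucosyltransferase of the ER, at -0.48 and KRE2, a mannosyltransferase of the Golgi, at 0.45. Over the 9 secretory lists together, 221 ORFs had a median change of 0.00 in W303, with 5 higher and 8 lower, and 220 had a median of -2.79 in prt1-1, with 2 higher and 189 lower. The W303 list medians were higher when the 25 °C ratio of prt1-1 or the ratio of BY4741 took the place of that of W303. Using that of prt1-1, they were 0.46 for lipid enzymes, 0.43 for glycosyltransferases, 0.61 for ER folding factors, 0.41 for the translocon list, 0.68 for cargo receptors and 0.30 for transporters. Using that of BY4741, they were 0.77 for lipid enzymes, 0.47 for glycosyltransferases, 0.55 for ER folding factors, 0.51 for the translocon list, 1.25 for cargo receptors and 0.57 for transporters.

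**Figure D3:**
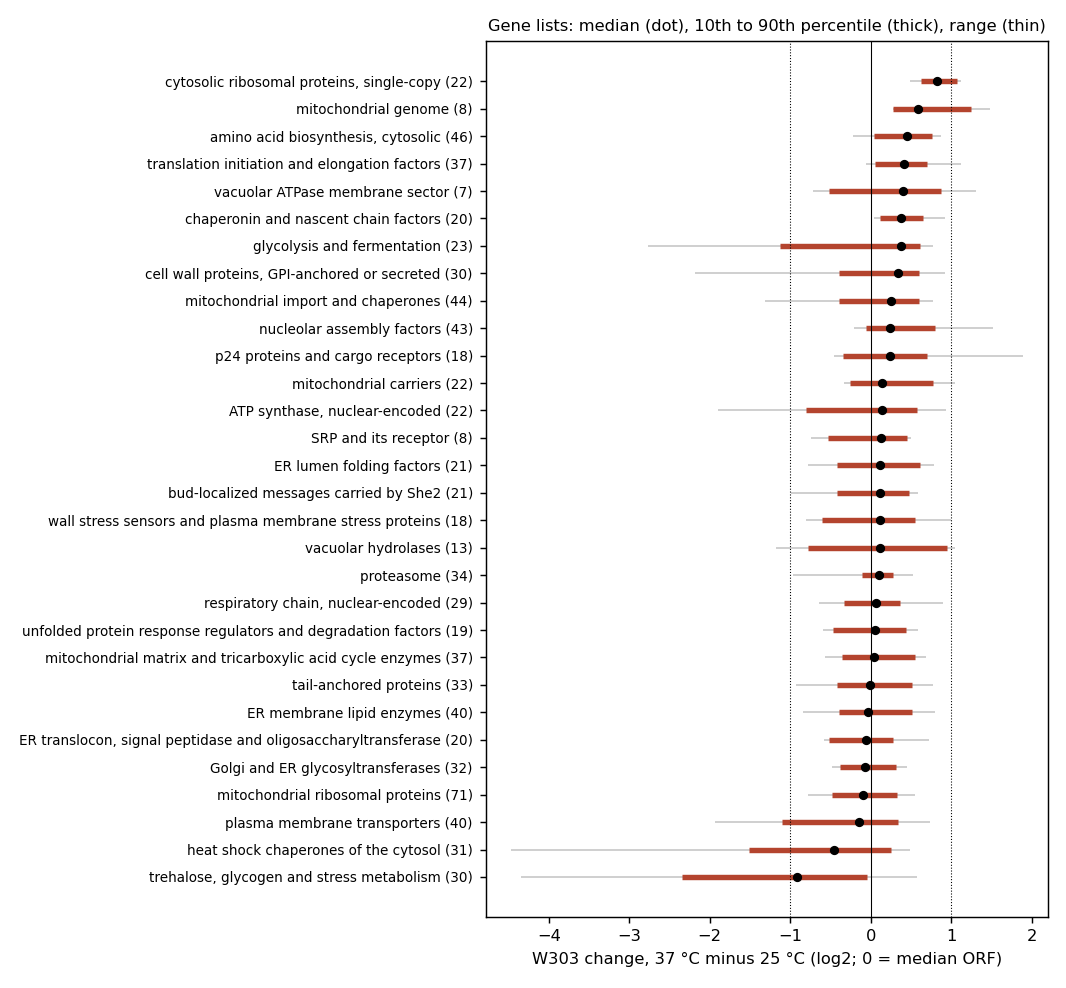
The W303 change of the log2 membrane to soluble ratio is shown for each of 30 gene lists, with the list median as a dot, the 10th to 90th percentile as a thick bar, the full range as a thin line, the number of members in parentheses and dotted lines at 2-fold. Single-copy ribosomal proteins sit highest (median 0.83), and heat shock chaperones (-0.46) and trehalose, glycogen and stress metabolism (-0.91) sit lowest.

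The lowest changes belonged to heat-induced messages with no ER signal. HSP26 (chromosome II, 382030 to 382674), a small heat shock protein that holds unfolded proteins, had 693 CPM at 37 °C and 180.0 CPM at 25 °C in membrane, and 1237 CPM at 37 °C and 11.6 CPM at 25 °C in soluble libraries. The soluble level was higher at 37 °C by far more than the membrane level, so the log2 ratio was -0.84 at 37 °C and 3.95 at 25 °C, and the change was -4.47 (-4.75 to -4.19), or 22.1-fold lower. HSP12 (chromosome VI, 107256 to 107585), a small stress protein that binds lipid, had 2494 CPM at 37 °C and 623 CPM at 25 °C in membrane, and 3777.5 CPM at 37 °C and 37.2 CPM at 25 °C in soluble libraries, a change of -4.34 (-4.50 to -4.19). The ratio of HSP26 was -0.42 in BY4741 and that of HSP12 was -0.94, both close to their 37 °C ratio in W303 and far from their 25 °C ratio. In prt1-1 the 25 °C ratio was 1.69 for HSP26 and 1.71 for HSP12, between the BY4741 and the W303 25 °C values. The prt1-1 change was -2.22 for HSP26 and -2.93 for HSP12.

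Other members of the lowest 10 showed the same arrangement of values. SSA4 (chromosome V, 364589 to 366517), a stress-inducible Hsp70, had 1096 CPM at 37 °C and 232 CPM at 25 °C in membrane, and 1274 CPM at 37 °C and 40.7 CPM at 25 °C in soluble libraries, a change of -2.41 (-2.58 to -2.23). HXK1 (chromosome VI, 253592 to 255049), a hexokinase, had 379.7 CPM at 37 °C and 155 CPM at 25 °C in membrane, and 878 CPM at 37 °C and 42.2 CPM at 25 °C in soluble libraries, a change of -2.77 (-2.96 to -2.57). In each the 25 °C soluble library holds the lowest value by far. GPH1, the glycogen phosphorylase, changed by -2.83, PGM2, a phosphoglucomutase, by -2.81 and RTC3 by -2.67. GRE3, an aldose reductase, changed by -2.29, TDH1, a glyceraldehyde-3-phosphate dehydrogenase, by -2.21 and TSL1, a subunit of trehalose-6-phosphate synthase, by -2.14. In prt1-1 RTC3 stood at -2.69, TDH1 at -1.69, PGM2 at -1.06, GPH1 at -0.92 and TSL1 at -0.65. SSA4 stood at -0.16 in prt1-1, GRE3 at 0.34 and HXK1 at 1.41. TDH1 has close paralogs, and the labels and headers do not say how reads shared by paralogs were counted, so its value is uncertain.

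**Figure D4:**
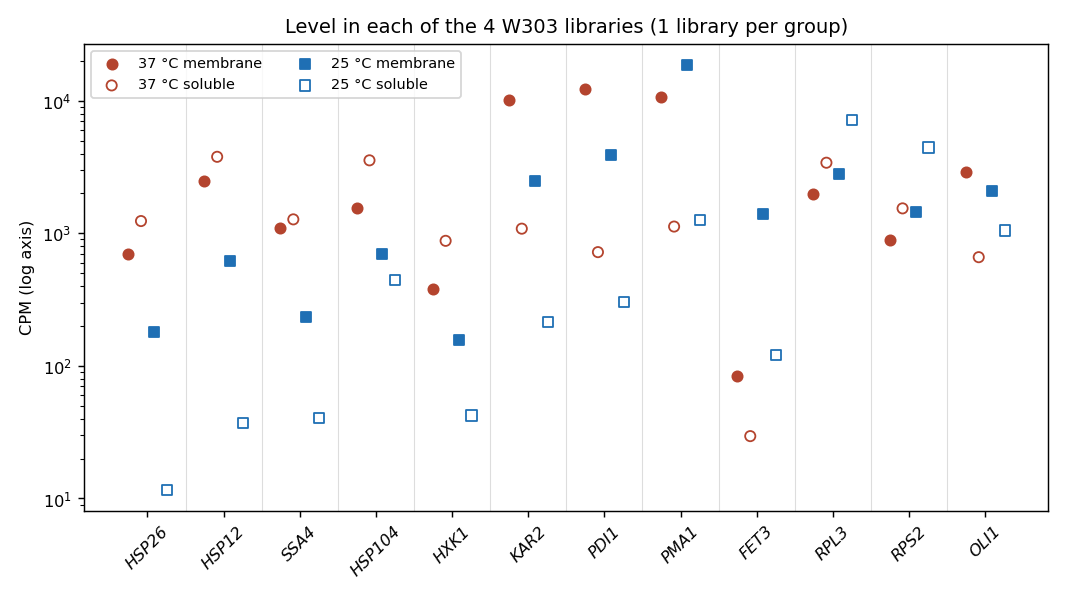
The level of 12 messages is shown in CPM on a log axis in each W303 library, 1 point per library, for 37 °C (circles) left of 25 °C (squares), filled for membrane and open for soluble. In HSP26, HSP12, SSA4 and HXK1 the 25 °C soluble value is the lowest of the 4 and stands well below the 25 °C membrane value, and in KAR2, PDI1 and PMA1 the membrane values stand above the soluble ones at both temperatures.

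Of 31 members of the list of heat shock chaperones of the cytosol, 0 were higher and 10 lower past 2-fold, and the median change was -0.46. Their median level was higher at 37 °C by 0.82 (log2) in membrane and by 1.75 in soluble libraries. HSP104, the disaggregase, had 1559.6 CPM at 37 °C and 697 CPM at 25 °C in membrane, and 3552.5 CPM at 37 °C and 447 CPM at 25 °C in soluble libraries, a change of -1.51. HSP82, an Hsp90 with a near-identical paralog, had 9898 CPM at 37 °C and 2335 CPM at 25 °C in membrane, and 10442 CPM at 37 °C and 769 CPM at 25 °C in soluble libraries, a change of -1.36. BTN2, which gathers misfolded proteins, changed by -0.62, and XDJ1 was the highest at 0.49. Of 30 members of the list of trehalose, glycogen and stress metabolism, 0 were higher and 14 lower, with a median of -0.91, and GRX2, a glutaredoxin, was the highest at 0.57. In prt1-1 the median change was 0.29 for the chaperones (10 higher, 3 lower) and -0.52 for the stress list (1 higher, 8 lower). Over all ORFs in prt1-1, 13.0% were higher and 21.7% lower past 2-fold.

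The size of these values rests on the 25 °C ratio of W303. At 25 °C the 30 stress ORFs had a median of 101 CPM in the membrane and 62.2 CPM in the soluble library of W303, 85.5 CPM in membrane and 72.5 CPM in soluble of prt1-1. In BY4741, whose growth temperature the labels do not give, they had 116 CPM in membrane and 189 CPM in soluble. With the prt1-1 25 °C ratio in place of that of W303, HSP26 stood at -2.16, HSP12 at -1.95, SSA4 at -0.58, HSP82 at -0.54, HSP104 at -0.20 and HXK1 at -0.06. The medians were then -0.18 for the chaperone list and -0.58 for the stress list. With the BY4741 ratio HSP26 stood at -0.42 and HSP12 at 0.35, with list medians of -0.03 for the chaperones and -0.21 for the stress list. The part of the 25 °C pair of libraries in these values was not tested.

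Of the 129 lower ORFs, 88 were cytonuclear (68.2%, against 63.7% of all members), 20 were of the 3 signal or transmembrane classes (15.5%, against 13.9% of members), 10 were mitochondrial, 10 of the exception class and 1 tail-anchored, shares near those of the members. Of the 51 higher ORFs, 22 were cytonuclear (43.1%) and 17 of the 3 signal or transmembrane classes (33.3%). The soluble level was up past 2-fold at 37 °C in 101 of the 129, compared with 864 of all 4717 ORFs, and down in 5. That level is itself part of the change, so ORFs picked for a lower change hold more such cases by construction. All 129 had a ratio above 0 at 25 °C, which is part of the change, and 39 had one at 37 °C. A ratio of 1 or more at 25 °C beside a ratio below 0 in BY4741 was found in 40 of them, compared with 97 of all 4717 ORFs. The 25 °C ratio is part of the change here too. In prt1-1, 117 of the 129 were measured, with 82 below 0, 47 lower past 2-fold and 7 higher past 2-fold. Of the 51 higher ORFs 50 were measured in prt1-1, with 27 below 0, 17 lower past 2-fold and 11 higher past 2-fold. Over all 4670 ORFs measured in prt1-1, 21.7% were lower and 13.0% higher past 2-fold.

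Cytonuclear messages were binned by their log2 soluble level at 37 °C over 25 °C in prt1-1, which shares no library with the W303 change. In prt1-1 heat acts together with the mutation, and this level is not the W303 heat response: HSP82 stood at -1.16 in prt1-1 and 3.76 in W303, and HXK1 at 0.35 in prt1-1 and 4.38 in W303. The median W303 change of cytonuclear ORFs was 0.45 where that level was under -2 (45 ORFs), 0.35 at -2 to -1 (248), 0.23 at -1 to 0 (768), 0.00 at 0 to 1 (1023), -0.17 at 1 to 2 (651), -0.38 at 2 to 3 (181) and -0.73 at 3 or more (59). The median 25 °C ratio ran in the opposite direction, at -0.95 in the first bin and 0.47 in the last. The median 37 °C ratio stayed between -0.78 and -0.52. With the BY4741 ratio in place of the W303 25 °C ratio the order was gone, at -0.11 in the first bin, -0.0346 in the last and -0.16 to -0.04 in those between. Across the 2975 cytonuclear ORFs Pearson's r between the W303 change and the prt1-1 soluble level change was -0.51 (Spearman's rho -0.50), a description over ORFs of the same libraries.

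The same bins gave no such order among the 3 signal or transmembrane classes. Their medians were -0.04 at -2 to -1 (12 ORFs), 0.01 at -1 to 0 (42), 0.00 at 0 to 1 (105), -0.05 at 1 to 2 (193), -0.03 at 2 to 3 (213) and 0.09 at 3 or more (80), and Pearson's r over 648 ORFs was 0.01. With the BY4741 ratio in its place the medians of these bins were, in the same order, 0.21, 0.10, 0.49, 0.39, 0.47 and 0.56. The contrast with cytonuclear ORFs thus depends on the ratio used. The median change differed by length in both groups. Among cytonuclear ORFs it was 0.25 under 200 codons (425 ORFs), 0.11 at 200 to 399 codons and -0.20 at 1000 codons or more (319 ORFs). In the 3 signal or transmembrane classes it was 0.18 under 200 codons (62 ORFs), 0.06 at 200 to 399 codons and -0.22 at 1000 codons or more (53 ORFs).

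**Figure D5:**
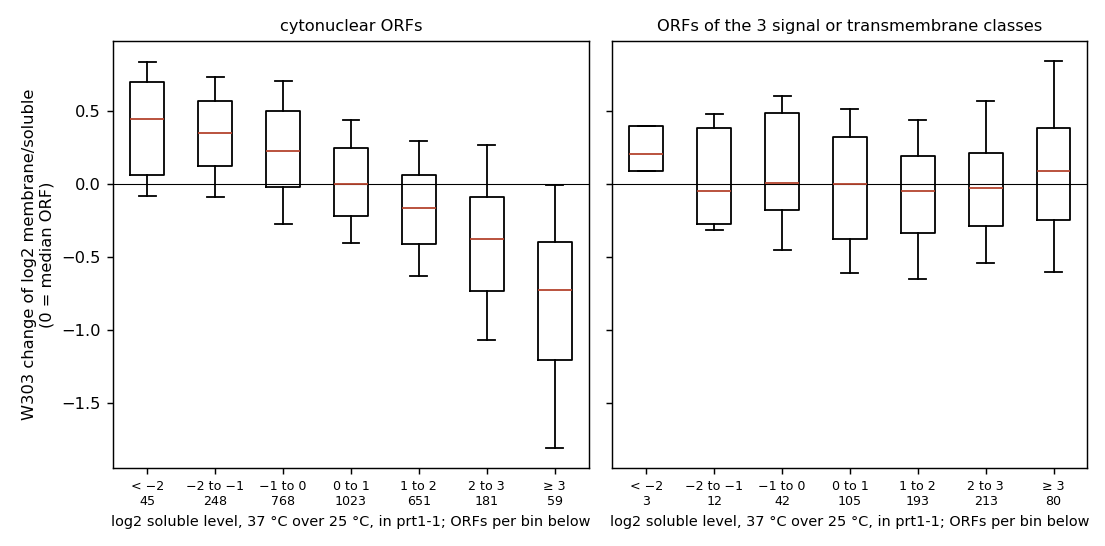
The W303 change of the log2 membrane to soluble ratio is plotted by bins of the log2 soluble level at 37 °C over 25 °C in prt1-1, for cytonuclear ORFs (left) and ORFs of the 3 signal or transmembrane classes (right), with the median, the quartiles and whiskers at the 10th and 90th percentiles, and the number of ORFs under each bin. The cytonuclear medians step down between 0.45 and -0.73, and the medians on the right stay near 0 in the bins with 12 or more ORFs, both with the W303 25 °C ratio.

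Messages of the translation machinery lay on the other side of the median. So did abundant messages in general. The median change was 0.41 over the 433 ORFs with 1000 or more counts in each of the 4 libraries, 15 of them higher and 3 lower past 2-fold. It was 0.04 where the lowest count was 500 to 999 (545 ORFs) and -0.07 at 50 to 99 (860 ORFs). The part of abundance in the medians of this list and the related lists below was not tested. All 22 single-copy ribosomal proteins measured were above 0, with a median of 0.83 that was 0.51 with no centring, and 4 were higher past 2-fold. Their median log2 ratio was -0.77 at 37 °C and -1.21 at 25 °C, a smaller share of the membrane than of the soluble library at both temperatures. Their median level was lower at 37 °C by a log2 difference of -0.68 in membrane and -1.12 in soluble libraries. RPS2 (chromosome VII, 277617 to 278381), of the small subunit, had 884 CPM at 37 °C and 1453 CPM at 25 °C in membrane, and 1542 CPM at 37 °C and 4441 CPM at 25 °C in soluble libraries, a change of 1.13 (1.06 to 1.19). RPL3 (chromosome XV, 444686 to 445849), of the large subunit, had 1992 CPM at 37 °C and 2825 CPM at 25 °C in membrane, and 3408 CPM at 37 °C and 7154 CPM at 25 °C in soluble libraries, a change of 0.89 (0.84 to 0.93). In both, the soluble level was lower at 37 °C by more than the membrane level was. ASC1 (1.12), RPS31 (1.08) and RPL5 (1.00) were the other 3 past 2-fold, named for their values, and RPL39 was the lowest at 0.49. In prt1-1 the list median was 0.69. With the prt1-1 25 °C ratio in place of that of W303 the W303 median was 0.60, and with the BY4741 ratio it was -0.10.

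Related cytosolic lists followed with smaller values, their medians staying above 0 with no centring except for the nucleolar factors and the proteasome. The 37 initiation and elongation factors had a median of 0.42, with 1 higher and 0 lower past 2-fold. That one was TIF2, which encodes the helicase eIF4A together with a near-identical gene and is therefore uncertain, at 1.12. PRT1 itself changed by 0.45 in W303, and FUN12, the factor eIF5B, was the lowest at -0.06. All 20 chaperonin and nascent chain factors were above 0 (median 0.38, 0 past 2-fold), between GIM4, a prefoldin subunit, at 0.04 and SSB2, a ribosome-bound Hsp70 with a near-identical paralog, at 0.93. The 46 enzymes of amino acid biosynthesis had a median of 0.46 and 0 past 2-fold, between SHM2 at -0.22 and ARG3 at 0.87. The BY4741 ratio gave these 3 lists medians of -0.05 for the factors, -0.07 for the chaperonin list and -0.14 for amino acid biosynthesis. The prt1-1 25 °C ratio gave 0.39 for the factors, 0.28 for the chaperonin list and 0.32 for amino acid biosynthesis, so the direction differed between the replacements.

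Glycolysis and fermentation (23 ORFs) had a median of 0.38 with 3 lower past 2-fold, HXK1, TDH1 and the glucokinase GLK1 (-1.31, named for its value), and TDH2 was the highest at 0.77. The list median was 0.43 with the prt1-1 25 °C ratio and -0.20 with the BY4741 ratio. The 43 nucleolar assembly factors had a median of 0.24, or -0.08 with no centring, and 2 were higher. DBP2 (chromosome XIV, 413639 to 416281), an RNA helicase, had 54.6 CPM at 37 °C and 222 CPM at 25 °C in membrane, and 58.9 CPM at 37 °C and 550.1 CPM at 25 °C in soluble libraries, a change of 1.52 (1.28 to 1.76) in W303 and 3.01 in prt1-1. The other was NSR1, yeast nucleolin, at 1.04, named for its value. TRM5, a tRNA methyltransferase, changed by 1.49, and RPL40B, a ribosomal protein gene with an identical protein product elsewhere and so uncertain, by 1.23. The 34 proteasome ORFs stayed near the median ORF at 0.11 with 0 past 2-fold, and RPN4, the transcription factor of proteasome genes, was lowest at -0.96.

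Of 8 messages of the mitochondrial genome, 2 were higher past 2-fold and 0 lower, and the median change was 0.59, or 0.27 with no centring. Their median log2 ratio was 2.01 at 37 °C and 1.16 at 25 °C. OLI1 (mitochondrial genome, 46723 to 46953), which encodes the ring subunit of the ATP synthase, had 2925 CPM at 37 °C and 2085 CPM at 25 °C in membrane, and 661 CPM at 37 °C and 1051 CPM at 25 °C in soluble libraries, a change of 1.48 (1.42 to 1.54). The membrane level was higher and the soluble level lower at 37 °C. VAR1, a mitochondrial ribosomal protein, stood at 1.15 (named for its value) and COX2, a cytochrome oxidase subunit, was the lowest at 0.28, a value above 0 only after centring, since its ratio was 2.81 at 37 °C and 2.85 at 25 °C. SCEI, an intron-encoded endonuclease that can share reads with its host transcript and is therefore uncertain, changed by 1.25. With the BY4741 ratio in place of the W303 25 °C ratio the list median was -0.21 and OLI1 stood at -0.18, and with the prt1-1 25 °C ratio the median was 0.35 and OLI1 stood at 0.59. Yeast mitochondrial messages have no poly(A) tail, and how oligo-dT beads recovered them was not tested.

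Nuclear messages for mitochondria mostly stayed near the median ORF. The 22 carriers had a median of 0.14, with 2 higher and 0 lower past 2-fold. PET9, the main ADP/ATP carrier, had 818 CPM at 37 °C and 727 CPM at 25 °C in membrane, and 339 CPM at 37 °C and 499 CPM at 25 °C in soluble libraries, a change of 1.05 (0.95 to 1.14). MIR1, the phosphate carrier, stood at 1.01, named for its value, and ODC1 was the lowest carrier at -0.33. The 37 matrix and tricarboxylic acid cycle enzymes had a median of 0.04 and 0 past 2-fold, between LSC2, a succinyl-CoA ligase subunit, at -0.57 and ACO1, aconitase, at 0.69. The 29 respiratory chain ORFs (median 0.07) also had 0 past 2-fold, between CYT1, cytochrome c1, at -0.65 and CYB2, a lactate dehydrogenase, at 0.90.

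Of the 22 nuclear ORFs of the ATP synthase list (median 0.14), STF2 at -1.90 was the one past 2-fold. ATP2, the beta subunit, changed by -0.74 and ATP17 by 0.94. The 44 import and chaperone ORFs had a median of 0.25 with 0 higher and 2 lower, HSP78, the mitochondrial disaggregase, at -1.31 and the protease subunit YTA12, named for its value, at -1.14. TIM44, an import motor subunit, changed by 0.33 and had a ratio of 2.66 at 37 °C and 2.65 at 25 °C. HSP60, the matrix chaperonin, changed by -0.38. The 71 mitochondrial ribosomal proteins had a median of -0.10 and 0 past 2-fold, between PET123 at -0.77 and IMG1 at 0.55.

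In the mitochondrial class the highest change was that of ATG33 (chromosome XII, 840321 to 840914), a protein of the outer membrane needed for mitophagy. It had 218 CPM at 37 °C and 43.3 CPM at 25 °C in membrane, and 28.5 CPM at 37 °C and 15.3 CPM at 25 °C in soluble libraries, a change of 1.76 (1.38 to 2.14). The lowest was PRX1, the mitochondrial peroxiredoxin, at -1.39. The list of 33 tail-anchored proteins had a median of -0.01 and 0 past 2-fold, between FAR10 at -0.93 and TOM6 at 0.78. In the authors' tail-anchored class the uncharacterised ORF YER053C-A was the lowest at -1.25 and TOM5, of the outer membrane import complex, the highest at 0.75. The 21 messages that She2 carries to the bud had a median of 0.12 and 0 past 2-fold, between TCB3, a tether between ER and plasma membrane, at -0.99 and KSS1, a mating and filamentation kinase, at 0.59.

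Beside 2.73% lower over all ORFs, 14 of 30 stress ORFs, 10 of 31 heat shock chaperones, 5 of 40 transporters and 3 of 23 ORFs of glycolysis were lower. So were 2 of 30 cell wall ORFs, 2 of 44 import and chaperone ORFs, 1 of 13 vacuolar hydrolases and 1 of 22 ATP synthase ORFs. Beside 1.08% higher, 2 of 8 ORFs of the mitochondrial genome, 4 of 22 ribosomal proteins, 2 of 18 cargo receptors and p24 proteins and 2 of 13 vacuolar hydrolases were higher. So were 1 of 7 vacuolar ATPase, 2 of 22 carrier, 2 of 43 nucleolar and 1 of 37 translation factor ORFs. All these counts use the W303 25 °C ratio. With the BY4741 ratio list medians were -0.21 (stress), -0.03 (chaperones), 0.57 (transporters) and -0.20 (glycolysis). They were -0.21 (mitochondrial genome), -0.10 (ribosomal proteins), 1.25 (cargo receptors) and 0.46 (hydrolases) for the others. Over all ORFs Pearson's r between the W303 and prt1-1 changes was 0.19 (Spearman's rho 0.25, 4670 ORFs). It was 0.36 among 2975 cytonuclear ORFs and 0.04 among 648 ORFs of the 3 signal or transmembrane classes. These are descriptions over ORFs measured in the same libraries.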

How the data were processed

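Poly(A) RNA of W303, prt1-1 and BY4741 fractions was measured with 1 library per group, and labels alone set the groups. The members and gene lists were chosen with earlier results of these data known. The deposited counts are raw reads per ORF with no normalization, per the file headers. The authors' deposited enrichments are on the log2 scale, per the file headers, and for W303 the 37 °C minus 25 °C difference in them equals the uncentred change plus 0.244 in all 3857 ORFs that have both (tolerance 1e-09). Bowtie, CASAVA, TopHat, cutadapt 1.3 and sacCer3 are named per the submitters' processing notes. The aligner settings, and whether multiple matches or strand were considered, are not given in the sources used. By elimination, the BY4741 columns without a drug name were read as CHX.

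CPM, ratios, centring and Poisson delta-method intervals at the 95% level were computed in Python 3.11.15 and tested on simulated data. The intervals cover counting error only. ORF names and positions came from RefSeq R64, the build of sacCer3, where 5902 of 5904 ORFs matched, and 894 of 896 list entries matched. Named were the 10 highest and 10 lowest ORFs by the interval bound nearest to 0, the extremes of each list and class, and 24 fixed names. Other names are marked as chosen for their values. SRP72-bound RNA (2 columns), polysome replicates and monosomes were not used, apart from the footprint enrichment used for bins. Alternatives were other minimums, centring on another class or none, a pseudocount and another fold limit. TMM (edgeR 4.0.16) and DESeq2 1.42.0 size factors in R 4.3.3 were also used. Added after the data had been seen was a ratio from other libraries in place of the W303 25 °C ratio. That ratio came from prt1-1 at 25 °C or from BY4741, whose growth temperature the labels do not give. Of ORFs with a lowest count of 50 to 54 (83 ORFs) the median change was 0.04 (-1.29 to 1.18), and of those at 45 to 49 (90 ORFs) it was -0.25 (-3.10 to 1.14).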

Additional observations from a re-analysis of the deposited data

Results flagged for a closer look

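The change went past 2-fold in opposite directions in W303 and prt1-1 for 7 named ORFs. Named or not, 17 of 50 ORFs higher in W303 were lower past 2-fold in prt1-1, and 7 of 117 lower in W303 were higher. Over all 4670 ORFs in prt1-1, 21.7% were lower and 13.0% higher past 2-fold. In the 3 signal or transmembrane classes 514 of 648 were lower there, so a low prt1-1 value is not particular to the ORFs named here. ATG33 stood at 1.76 in W303 and -3.08 in prt1-1. AVT6 stood at 1.57 in W303 and -2.78 in prt1-1, VMA16 at 1.31 in W303 and -3.69 in prt1-1, and ATH1 at 1.04 in W303 and -1.66 in prt1-1. PEP4 stood at 1.03 in W303 and -4.14 in prt1-1, and SVP26 at 1.02 in W303 and -3.25 in prt1-1. HXK1 stood at -2.77 in W303 and 1.41 in prt1-1. Each strain has 1 library per group, so the differences were not tested.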

How the results depend on the processing

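No paired analysis was possible because each group has 1 library and no replicate number is shared. Against 51 higher and 129 lower ORFs, a minimum of 20 counts gave 66 and 200, a minimum of 200 gave 19 and 53, no minimum with 0.5 added gave 155 and 404, no centring gave 8 and 321, centring on cytonuclear ORFs gave 44 and 138, TMM gave 95 and 91, DESeq2 size factors gave 59 and 119, a pseudocount of 5 CPM gave 44 and 90, and a fold limit of 1.5 gave 416 and 442. The prt1-1 25 °C ratio in place of that of W303 gave 261 and 346, and the BY4741 ratio 352 and 115. The median over all ORFs was -0.32 with no centring, 0.12 with TMM and 0.04 with DESeq2 size factors.

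The median of the 3 signal or transmembrane classes together, -0.0126, was -0.33 with no centring, 0.11 with TMM, 0.0318 with DESeq2 size factors, -0.0826 at a minimum of 200, 0.34 with the prt1-1 25 °C ratio and 0.43 with the BY4741 ratio. Class medians are given in the order cytonuclear, exception, mitochondrial, signal with transmembrane, signal, tail-anchored and transmembrane. With no centring they were -0.29, -0.40, -0.38, -0.31, -0.20, -0.29 and -0.38. With the BY4741 ratio they were -0.0704, 0.0379, 0.19, 0.44, 0.47, -0.10 and 0.40. With the prt1-1 25 °C ratio they were -0.10, -0.0151, 0.24, 0.44 and 0.40 for the first 5 and 0.32 for the last. TMM moved cytonuclear to 0.15, exception to 0.0387, mitochondrial to 0.0658, signal to 0.24 and transmembrane to 0.0622. DESeq2 size factors moved cytonuclear to 0.0703, centring on that class to 0.00, and a minimum of 200 moved it to 0.0523 and transmembrane to -0.15.

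With the BY4741 ratio the sign turned for GAP1 (1.70), MEP2 (1.67), ZRT1 (1.22), YTA12 (0.54), FTR1 (0.49), AMS1 (0.67), YER053C-A (0.56), SSA4 (0.45), HSP12 (0.35), HSP82 (0.16), HSP78 (0.14), RTC3 (0.0662), TDH1 (0.0486), STF2 (0.0109), VAR1 (-0.53), RPS31 (-0.25), RPL5 (-0.18), RPL40B (-0.21), OLI1 (-0.18), PET9 (-0.15), TIF2 (-0.12) and RPS2 (-0.0835). With the prt1-1 25 °C ratio it turned for STF2 (0.75), AMS1 (0.73), ZRT1 (0.31), GAP1 (0.24) and HSP78 (0.0012). Both lists hold only named ORFs that were past 2-fold with the W303 25 °C ratio. Smaller changes turned sign as well and are not all listed. Examples are SEC61 (0.62 with the prt1-1 ratio, 0.55 with the BY4741 ratio), KSS1 (-0.63 with the prt1-1 ratio) and RPL3 (-0.12 with the BY4741 ratio). Of 48 named ORFs past 2-fold, 48 stayed so under DESeq2 size factors, a minimum of 20 and no minimum, 45 under TMM and under cytonuclear centring, 43 with the pseudocount, 33 with no centring, 29 of 34 at a minimum of 200, 16 of 47 with the prt1-1 ratio and 7 of 48 with the BY4741 ratio. The cause of these shifts was not tested. Depth limits the 25 °C membrane library most.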
